A study of Mus musculus with 51 samples.

Results

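Adipokines are proteins that fat cells release to signal to other tissues. 7 of their genes are described here out of 53801 in the deposited gene table: Adipoq (adiponectin), Cfd (complement factor D, or adipsin), Retn (resistin), Lep (leptin), Angptl4 (angiopoietin-like 4), Nampt (nicotinamide phosphoribosyltransferase, also called visfatin) and Rbp4 (retinol binding protein 4). They were chosen by symbol as well-known adipokines, with earlier results of these data known. Each symbol matched 1 Ensembl identifier of the table. Their RNA was followed in mouse C3H/10T1/2-SAM cells, a mesenchymal pre-adipocyte line that carries dCas9-VP64 and MS2-P65-HSF1, the parts of a CRISPR activation system that raises transcription of an endogenous gene where a guide RNA directs it.

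Cells were transfected with an empty vector plasmid (EV, the control), with a plasmid for a Pparg guide only (P), or with plasmids for a Pparg guide and a Ybx1 guide together (PY). Plasmid DNA totalled 250 ng in every transfection, and transfection preceded day 0 by 48 h. Every group, the control included, received 5 µM rosiglitazone, a drug that binds and activates PPARγ, on day 0. The labels do not state whether the day 0 RNA was taken before or after the drug was added, nor how many cells took up a plasmid. Libraries of stranded, ribosomal-RNA-depleted total RNA were made on days 0, 2 and 4 in 6 numbered experiments, giving 5 EV, 5 P and 6 PY libraries on day 0, 6 EV, 6 P and 5 PY on day 2, and 6 of each on day 4. Libraries are named here by experiment, and the p-values measure the spread between these experiments in 1 cell line.

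PPARγ, the product of Pparg, is a nuclear receptor and the main switch of fat cell formation, and YBX1 is a protein that binds DNA and RNA. Adiponectin is a hormone made almost wholly by fat cells that raises insulin sensitivity, and factor D is the serine protease that starts the alternative complement pathway. Resistin comes from fat cells in mice and mostly from macrophages in humans. Leptin reports fat stores to the brain. Angiopoietin-like 4 inhibits lipoprotein lipase and is a known PPAR target in many cell types, NAMPT is the rate-limiting enzyme that rebuilds NAD from nicotinamide and is found in most cells, and RBP4 carries retinol in blood and is made mainly by liver.

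Promoters are shown for Adipoq, Cfd and Retn, which had the largest folds over EV on day 4. The promoter of Nampt, which had a far smaller fold, is shown beside them because they differ in base composition. Each is the RefSeq window of 300 bases, from 250 before to 50 after the start, on build GRCm38.p6, read 5′ to 3′ on the gene's strand, with CG dinucleotides in capitals. The windows lie at chr16:23146286-23146585 (+) for Adipoq, chr10:79890603-79890902 (+) for Cfd, chr8:3655520-3655819 (+) for Retn and chr12:32820085-32820384 (+) for Nampt.
Adipoq: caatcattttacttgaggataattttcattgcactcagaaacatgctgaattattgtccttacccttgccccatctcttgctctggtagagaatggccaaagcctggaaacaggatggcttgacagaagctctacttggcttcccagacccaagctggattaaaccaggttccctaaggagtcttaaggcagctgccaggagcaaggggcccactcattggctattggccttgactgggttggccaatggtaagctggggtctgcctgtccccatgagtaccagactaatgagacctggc
Cfd: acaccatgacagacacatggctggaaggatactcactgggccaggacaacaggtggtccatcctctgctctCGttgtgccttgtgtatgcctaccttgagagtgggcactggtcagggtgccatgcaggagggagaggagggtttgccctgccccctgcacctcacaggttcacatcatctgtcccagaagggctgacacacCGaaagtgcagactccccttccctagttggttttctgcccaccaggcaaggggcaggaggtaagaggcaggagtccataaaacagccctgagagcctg
Retn: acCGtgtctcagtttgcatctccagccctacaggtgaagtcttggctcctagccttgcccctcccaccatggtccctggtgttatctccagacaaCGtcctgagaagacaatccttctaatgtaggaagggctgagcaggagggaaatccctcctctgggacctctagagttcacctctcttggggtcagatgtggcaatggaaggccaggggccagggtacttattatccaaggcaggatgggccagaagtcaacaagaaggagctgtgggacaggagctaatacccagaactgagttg
Nampt: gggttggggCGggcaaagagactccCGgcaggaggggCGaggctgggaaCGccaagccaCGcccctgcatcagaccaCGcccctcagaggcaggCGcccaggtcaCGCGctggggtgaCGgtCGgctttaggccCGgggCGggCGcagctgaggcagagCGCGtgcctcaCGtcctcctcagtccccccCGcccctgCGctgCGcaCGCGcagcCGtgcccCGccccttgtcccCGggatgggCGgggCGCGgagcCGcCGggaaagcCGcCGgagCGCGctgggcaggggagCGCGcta
The Adipoq window held 0 CG dinucleotides and those of Cfd and Retn held 2 each, beside a median of 7 in all 32851 windows, 23.3% of which held 2 or fewer. The Nampt window held 36, a number reached by 6.23% of windows, and its GC content was 76.3% against 50% for Adipoq, 57.7% for Cfd and 54% for Retn. The Lep window (chr6:29059971-29060270, +) held 19, and the windows at the 2 Rbp4 starts held 5 and 40. Angptl4 is named only. Both strands of these windows were searched for AGGTCA (in 16.3% of all windows), a DR1 of 2 AGGTCA hexamers 1 base apart with at most 2 mismatches (3.86%), TTGCNNAA (10.8%), TATAAA (13.6%), GGGCGG (35.7%) and ACGTG (19.6%). A DR1 match contains near-matches of AGGTCA, and the other motifs can overlap it. The Adipoq, Cfd and Retn windows held none of these motifs, while the Nampt window held AGGTCA once, GGGCGG 5 times and ACGTG once. The Lep window held TTGCNNAA and GGGCGG once each. The Rbp4 window with 5 CG dinucleotides held none, and the one with 40 held TTGCNNAA, TATAAA and ACGTG once each and GGGCGG 2 times. These are descriptions of short windows and say nothing about binding.

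The libraries held 3381870 to 114566739 counts in genes. The PY libraries of experiment 3 on day 0 and day 2 were the 2 shallowest. Levels are in CPM, the usual per-library scale of counts, on library sizes scaled by trimmed mean of M values. Pparg was at 51.5 ± 7.45, 56.5 ± 11.8 and 57.1 ± 15 CPM (mean ± SD) in EV on days 0, 2 and 4. In P it was 4.69-fold, 5.3-fold and 4.18-fold higher, with edgeR quasi-likelihood Benjamini-Hochberg adjusted p of at most 0.000141. Ybx1 was 2.95-fold to 3.24-fold higher in PY than in P on the 3 days. In bulk libraries, fewer cells of a type and less RNA per cell cannot be told apart.

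After Pparg activation Adipoq and Cfd rose on days 2 and 4 in P, and Retn had risen by day 4. These 3 were higher than in EV by 37.5-fold to 369-fold on day 4. Nampt was 1.9-fold higher in P than in EV on day 4, and its level was already substantial in control cells. Its mean on days 0, 2 and 4 was 276, 176 and 206 CPM in EV and 261, 338 and 391 CPM in P. Angptl4 was not called on either day, and Lep and Rbp4 stayed at or near the detection floor. 5 of the 7 genes had enough counts to be tested, and a call means a Benjamini-Hochberg adjusted p under 0.05 over all 17015 genes in edgeR's quasi-likelihood test. P against EV called 0 of the 5 on day 0 (0.00588% of all genes tested were called), 3 on day 2 (2.83%) and 4 on day 4 (5.37%). PY against EV called 0 on day 0 (0.047%), 4 on day 2 (4.74%) and 4 on day 4 (7.83%). All called differences were higher with the guide. On day 0, 1 of the 5, Angptl4, had an unadjusted p under 0.05 in each of these comparisons, and DESeq2 called 0. The median log2 fold change of the 5 in P against EV was 0.67, 3.61 and 5.23 on days 0, 2 and 4, beside 0.00, -0.02 and -0.06 over all genes. P and PY were compared with the same EV libraries, so their agreement is not independent.

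**Figure D1:**
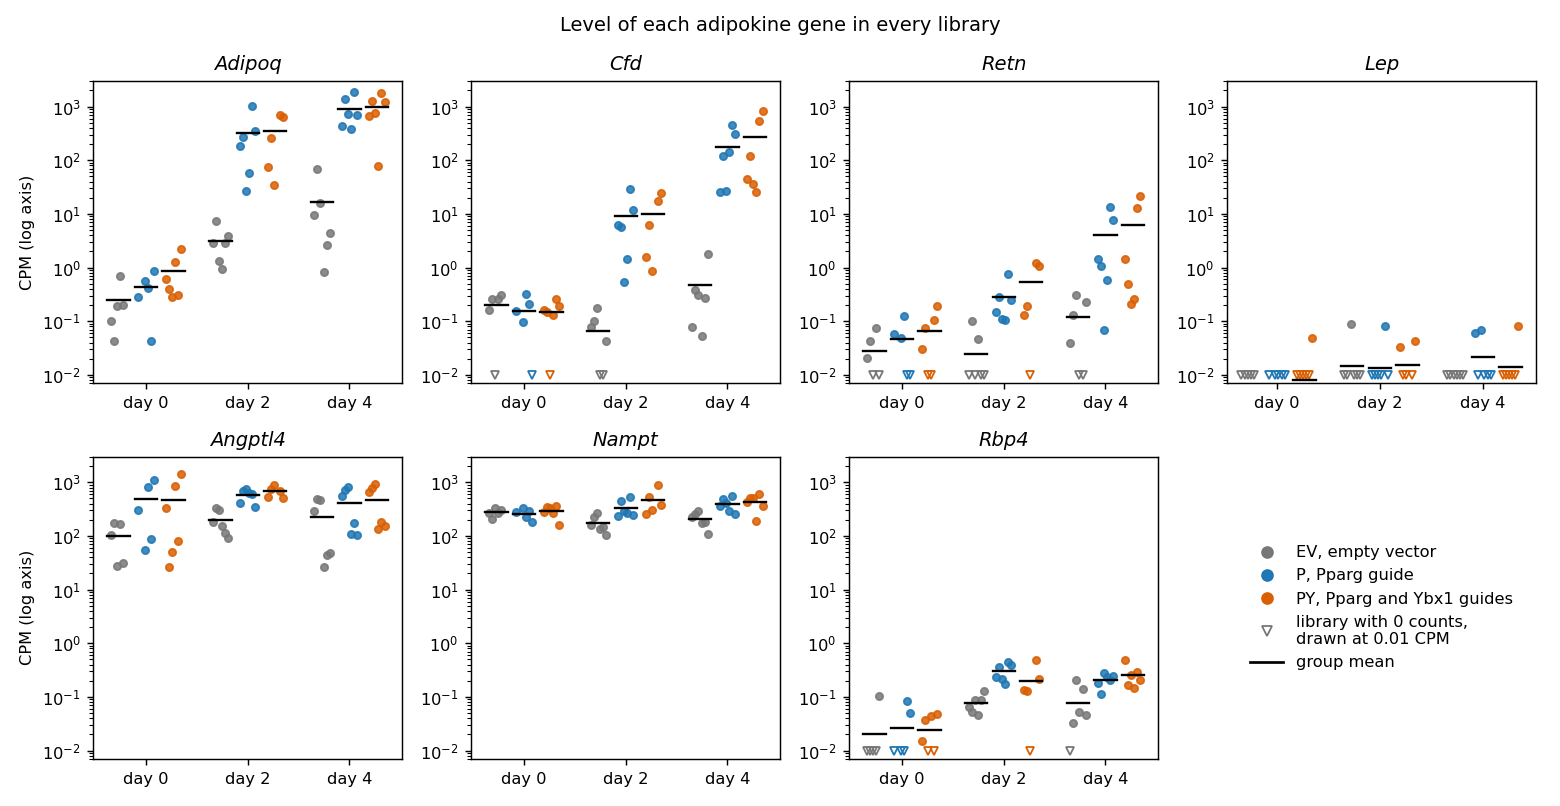
Level of each of the 7 genes in every library (CPM, log axis) by day, with EV, P and PY side by side; each point is 1 library, bars are group means, and open triangles at 0.01 mark libraries with 0 counts. Adipoq and Cfd lie wholly above the control range on days 2 and 4, some guide libraries lie within it for Retn, Angptl4 and Nampt start high in all groups, and Lep and Rbp4 stay at the bottom of the axis.

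Adipoq (ENSMUSG00000022878, chr16:23146536-23158028, + strand, GRCm38) was nearly silent on day 0. Its levels were 0.102, 0.0437, 0.194, 0.705 and 0.205 CPM in EV (experiments 1 to 5), 0.288, 0.573, 0.424, 0.0421 and 0.855 CPM in P (experiments 1, 3, 4, 5 and 6), and 0.278, 0.514 and 2.22 CPM (lowest, median, highest) in PY. The 3 groups overlapped. By day 2 the lowest, median and highest levels were 0.926, 2.88 and 7.34 CPM in EV and 27, 229 and 1022 CPM in P, and PY held 76.2, 256, 35.1, 709 and 650.3 CPM in experiments 1, 2, 3, 5 and 6. Neither guide group overlapped EV. The day 2 mean was 319 ± 365 CPM (SD, n = 6) in P and 345 ± 317 CPM (SD, n = 5) in PY, against 3.19 ± 2.3 CPM (SD, n = 6) in EV. The fold over EV was 99.1 in P (95% interval 27.3 to 361, edgeR Benjamini-Hochberg adjusted p = 8.78e-06) and 108 in PY (29 to 398, adjusted p = 5.38e-06). The guide group was higher in every experiment that had both libraries, 6 of 6 for P and 5 of 5 for PY. Experiment 5 carried much of the P value: without it the fold was 54.2, and without its P library alone 55.7.

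On day 4 Adipoq stood at 0.834, 7.07 and 67.4 CPM in EV, 383, 704 and 1862 CPM in P and 78.3, 981 and 1833 CPM in PY (lowest, median, highest). The lowest guide library, PY of experiment 4, was still above the highest EV library, that of experiment 2. Adipoq was higher than in EV by 54.1-fold in P (15.9 to 185, edgeR adjusted p = 1.67e-05) and 57.2-fold in PY (16.7 to 196, adjusted p = 8.18e-06), higher in 6 of 6 experiments each. Within single experiments P over EV ranged from 21 to 699. The EV library of experiment 2 lowered both folds: without it they were 141 and 149, and without all of experiment 2 they were 125 and 139.

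Control cells also gained Adipoq between day 0 and day 2, with rosiglitazone and no guide. EV on day 2 was 12.5-fold above EV on day 0 (2.67 to 58.8, edgeR Benjamini-Hochberg adjusted p = 0.0401), the groups did not overlap, and it rose in 5 of 5 experiments. This was 1 of 5 adipokines called, where 7.31% of all genes were called. The call rested on single libraries. It was lost without a filter on low counts (adjusted p = 0.109) and without any of experiments 1, 2, 5 or 6 or any of the single EV libraries of experiments 1, 2 and 5 on day 0 and 1, 2, 5 and 6 on day 2. Adjusted p was then 0.0541 to 0.178. Without experiment 4, or its EV day 0 library, the fold was 30.3 or 26.6.

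Cfd (ENSMUSG00000061780, chr10:79890853-79892655, + strand) was barely detected on day 0 and ended with the widest gap to control of the 5 tested genes. On day 0 it was at most 0.324 CPM in any library, with 0 counts in 1 library of each group. On day 2 its levels were 0, 0.0602 and 0.177 CPM in EV, with 0 counts in 2 libraries, and 0.54, 5.89 and 29.4 CPM in P (lowest, median, highest). PY held 1.59, 6.09, 0.877, 17.5 and 24.9 CPM on day 2 (experiments 1, 2, 3, 5 and 6). Both guide groups lay wholly above EV, the nearest being the P and EV libraries of experiment 3 with 5 and 2 counts. Cfd exceeded EV by 140.5-fold in P (27.6 to 715, edgeR adjusted p = 9.42e-05) and 164-fold in PY (31.5 to 853, adjusted p = 4.66e-05). EV held only 11 Cfd counts in all on day 2, and the ratio of pooled counts was 151 (95% counting interval 84.1 to 303) for P. Without experiment 5 the P fold was 69.2, and 80.1 without its P library; without experiment 6 the PY fold was 102, and 109 without its PY library.

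On day 4 Cfd reached 26, 130.2 and 456 CPM in P and 25.6, 83.9 and 823 CPM in PY, against 0.0521, 0.29 and 1.77 CPM in EV (lowest, median, highest). The groups were far apart, and the guide libraries of experiments 5 and 6 were the highest of each guide group. The fold over EV was 369 in P (90.8 to 1498, edgeR Benjamini-Hochberg adjusted p = 4.09e-07) and 546 in PY (131 to 2276, adjusted p = 8.77e-08), higher in 6 of 6 experiments each. The size rested on few libraries. Without the EV library of experiment 6 the folds were 799 and 1183, without all of experiment 6 the P fold was 681, without experiment 5 it was 240.1, and without the PY library of experiment 6 the PY fold was 319.

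Retn (ENSMUSG00000012705, chr8:3655770-3660110, + strand) was the scarcest of the 5 tested adipokines. Over 5 EV, 5 P and 6 PY libraries it was at or below 0.193 CPM on day 0. On day 2 EV held 3 Retn counts in 6 libraries, while P held 0.105, 0.199 and 0.772 CPM (lowest, median, highest) and PY 0.133, 0.19, 0, 1.24 and 1.07 CPM (experiments 1, 2, 3, 5 and 6). P did not overlap EV, but only barely. The lowest P library, that of experiment 4 with 3 counts, was at 0.105 CPM, and the highest EV library, that of experiment 2 with 2 counts, at 0.103 CPM. PY overlapped EV through 1 library with 0 counts. The ratio of pooled day 2 counts was 15.3 (95% counting interval 4.9 to 77.1) for P and 39.5 (95% counting interval 12.9 to 196) for PY. In the edgeR fit the P fold of 12.2 (1.69 to 88) was not called (Benjamini-Hochberg adjusted p = 0.279), although it was higher in 6 of 6 experiments; with experiment and day as a block, a fit added after the data were seen, adjusted p was 0.0158. The PY fold of 26.9 (3.99 to 182) was called (adjusted p = 0.0368, 4 of 5 experiments). That call was lost with no filter on low counts (0.0978), without experiment 1, 5 or 6, and without the single EV libraries of experiments 1, 3, 4, 5 and 6 or the PY libraries of experiments 5 and 6, with adjusted p of 0.0563 to 0.282. Without experiment 2, or its EV library, the PY fold was 65.4 or 54.6.

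By day 4 Retn was plainly above control, yet low beside the other 4 tested adipokines. Its levels were 0, 0.0841 and 0.305 CPM in EV, 0.069, 1.26 and 13.4 CPM in P and 0.209, 0.97 and 22 CPM in PY (lowest, median, highest). The guide libraries of experiments 5 and 6 held most of it, and those of experiment 3 overlapped EV. Retn exceeded EV by 37.5-fold in P (8.89 to 158, edgeR adjusted p = 0.000609) and 58.5-fold in PY (13.7 to 250.2, adjusted p = 8.9e-05), each higher in 5 of 6 experiments. Without experiment 3 the folds were 56.4 and 89.6. Without experiment 5 the P fold was 17, and 20.4 without its P library alone; without experiment 6 the PY fold was 38.6, and 29.5 without its PY library. Macrophages are another known source of resistin. Of 11 macrophage markers, summed levels on day 4 were 8.49 to 16.3 CPM in EV, 8.49 to 14.2 in P and 6.81 to 16.4 in PY. Over all libraries the medians of Cd14, Cd68 and Csf1r were 6.28, 3.16 and 0.437 CPM. Those of Ptprc and Adgre1, which had at most 7 and 5 counts, were 0. The cell source of Retn was not tested.

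Angptl4 (ENSMUSG00000002289, chr17:33773750-33781830, - strand) was already abundant at the first time point. On day 0 it held 102, 176, 27.1, 165 and 31.5 CPM in EV (experiments 1 to 5), 304, 53.7, 823, 89.2 and 1128 CPM in P (experiments 1, 3, 4, 5 and 6) and 26.2, 205 and 1437 CPM in PY (lowest, median, highest). Libraries of P and of PY differed among themselves by more than an order of magnitude, and the groups overlapped. The day 0 fold over EV was 4.76 in P (1.48 to 15.3, edgeR Benjamini-Hochberg adjusted p = 1) and 4.61 in PY (1.47 to 14.4, adjusted p = 1), so no difference was called.

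On day 2 Angptl4 held 93.3, 170.1 and 326 CPM in EV and 351, 611 and 760.3 CPM in P (lowest, median, highest), and 533, 759, 904, 678 and 505 CPM in PY (experiments 1, 2, 3, 5 and 6). Neither guide group overlapped EV. The fold over EV was 2.92 in P (1.03 to 8.3) and 3.43 in PY (1.16 to 10.2), and neither was called by the edgeR test over all libraries (Benjamini-Hochberg adjusted p = 0.513 and 0.258). On day 4 the ranges were 26 to 482 CPM in EV, 105 to 836 in P and 136 to 938 in PY, which overlapped, with medians of 169.5, 361 and 420.4. The day 4 folds of 1.86 (0.663 to 5.19) and 2.11 (0.75 to 5.92) were not called either (adjusted p = 0.738 and 0.539). In each of the 3 transfections, experiments 1 to 3 all lay above experiments 4 to 6 on day 4.

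Within an experiment Angptl4 was higher in P than in EV wherever both libraries existed. P exceeded EV in 4 of 4, 6 of 6 and 6 of 6 shared experiments on days 0, 2 and 4, by 1.98 to 4.98-fold, 2.14 to 5.25-fold and 1.53 to 4.24-fold. PY exceeded EV in 4 of 5 on day 0, where the ratio ran from 0.149 to 5.21 with experiment 2 the lowest, in 5 of 5 on day 2, by 2.33 to 5.94-fold, and in 6 of 6 on day 4, by 1.62 to 5.26-fold. When libraries of the same experiment and day were compared as a block, a fit chosen after the data were seen, edgeR called P against EV on day 2 (Benjamini-Hochberg adjusted p = 0.00149) and day 4 (0.0112). It also called PY against EV on both days (0.000402 and 0.00193). With that block all 5 tested adipokines were called in P against EV on day 2, as were 2798 of all 17015 genes, against 481 in the main fit. A block for the experiment alone, across days, called neither day in P (adjusted p = 0.226 and 0.465). With only the EV and P libraries of day 2 in the fit, adjusted p was 0.0205, and with only the EV and PY libraries 0.00557. Over all alternatives adjusted p of the P difference ran from 0.00149 to 1 on day 2 and from 0.0112 to 0.996 on day 4.

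**Figure D2:**
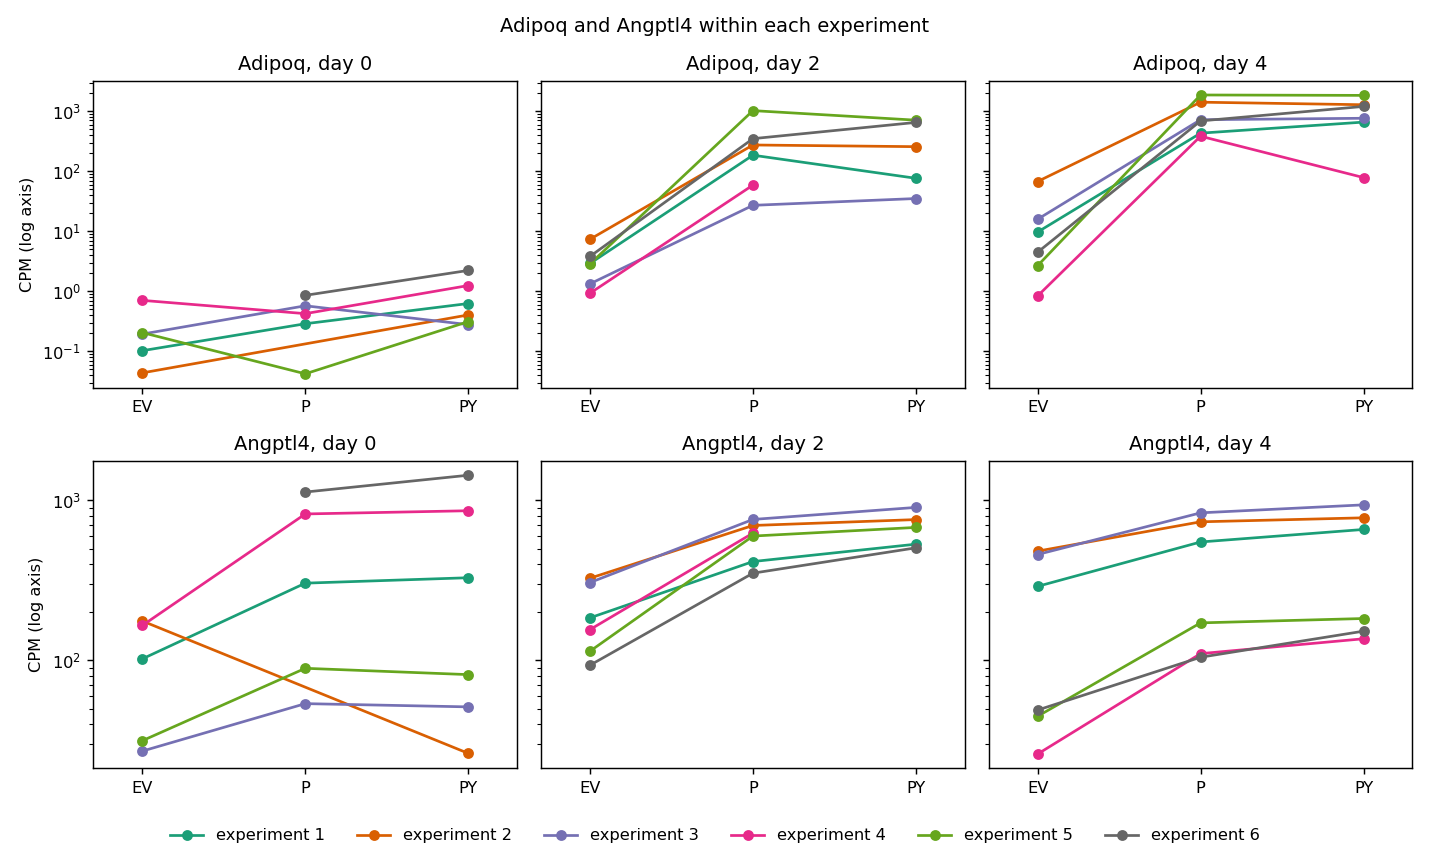
Level of Adipoq and Angptl4 (CPM, log axis) in EV, P and PY on each day, with lines joining libraries of 1 experiment; the day 0 line of experiment 2 runs straight from EV to PY because it has no P library. For Angptl4 the lines start at different heights, yet each rises from EV to P where both exist, by 2.14 to 5.25-fold on day 2, and on day 4 experiments 1 to 3 lie above experiments 4 to 6.

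Nampt (ENSMUSG00000020572, chr12:32819545-32853349, + strand) was expressed at similar levels in all groups on day 0. EV held 263, 211, 325, 272 and 306 CPM (experiments 1 to 5), P 277, 326, 229, 294 and 181 CPM (experiments 1, 3, 4, 5 and 6) and PY 163, 309 and 357 CPM (lowest, median, highest). The groups overlapped, and P over EV was 0.949 (0.635 to 1.42, edgeR Benjamini-Hochberg adjusted p = 1). On day 2 EV held 105, 157 and 273 CPM, P 240.3, 279 and 544 CPM (lowest, median, highest) and PY 257, 537, 311, 879.9 and 378 CPM (experiments 1, 2, 3, 5 and 6). The guide groups lay higher but overlapped EV. The fold over EV was 1.93 in P (1.33 to 2.79, adjusted p = 0.0418, 6 of 6 experiments) and 2.69 in PY (1.83 to 3.97, adjusted p = 0.000609, 5 of 5).

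On day 4 Nampt held 107, 202 and 293 CPM in EV, 253, 385 and 551 CPM in P and 193, 474 and 605 CPM in PY. The P libraries of experiments 4 and 6 and the PY library of experiment 4 lay within the EV range, and the other guide libraries lay above it. The fold was 1.9 in P (1.31 to 2.75, edgeR adjusted p = 0.03) and 2.13 in PY (1.47 to 3.09, adjusted p = 0.00511), higher in 6 of 6 experiments each. The P calls were close to the threshold. The day 2 call in P was lost without any of experiments 1, 2, 4, 5 and 6, the EV libraries of experiments 1, 4, 5 and 6 or the P libraries of experiments 2 and 5 (adjusted p 0.0787 to 0.468). It was also lost with no filter on low counts (0.0683) and with only the compared groups in the fit (0.0922). The day 4 call in P was lost without experiments 1, 2 or 5, the P libraries of experiments 2, 3 and 5 or the EV libraries of experiments 4, 5 and 6 (adjusted p 0.0504 to 0.147). The day 2 call in PY was lost without experiment 5 (adjusted p = 0.0568).

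Lep (ENSMUSG00000059201, chr6:29060220-29073877, + strand), a hormone of mature fat cells, was not measurable at this depth. It had 10 counts in all 51 libraries, 1 in EV, 4 in P and 5 in PY, and 43 libraries had 0. A count of 0 allows up to 3 counts, which is 0.0247 to 1.32 CPM depending on the library, counting error only. No fold is given.

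Rbp4 (ENSMUSG00000024990, chr19:38116629-38125281, - strand) was detected in 40 of 51 libraries but with at most 14 counts, too few to pass the filter. On day 2 its levels were 0.0463, 0.0757 and 0.127 CPM in EV and 0.176, 0.293 and 0.447 CPM in P (lowest, median, highest), which did not overlap, and 0.133, 0.127, 0, 0.497 and 0.215 CPM in PY (experiments 1, 2, 3, 5 and 6). On day 4 the ranges were 0 to 0.203 CPM in EV, 0.112 to 0.276 in P and 0.148 to 0.482 in PY. The ratio of pooled counts to EV was 3.94 (95% counting interval 2.1 to 7.93) for P on day 2, from 48 and 13 counts, and 4.39 (95% counting interval 2.00 to 11) for PY on day 4, from 35 and 8. In a fit of all 43837 genes with a count, edgeR called neither guide difference (P on day 2, 3.89-fold, Benjamini-Hochberg adjusted p = 0.0698; PY on day 4, 4.03-fold, adjusted p = 0.0546). The rise from day 0 to day 2 was called in that fit in P (14.6-fold, adjusted p = 0.000248) and in PY (7.96-fold, adjusted p = 0.00392). Liver makes most circulating RBP4, and 6 liver markers summed to at most 0.416 CPM in any library.

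Per kilobase of exon, which allows genes to be compared, the order of the adipokines changed with Pparg activation. In EV on day 0 the mean level was 54.5 ± 8.69 CPM per kb for Nampt and 28.4 ± 20.01 for Angptl4, with Cfd at 0.215 ± 0.133 and Adipoq at 0.181 ± 0.19. Cfd and Adipoq differed by less than their SDs. On day 4, EV was led by Angptl4 at 63.6 ± 60.3 and Nampt at 40.7 ± 13.3, followed by Adipoq at 12.2 ± 18.4, and the SDs of these neighbours overlapped. In P on day 4 Adipoq came first at 663 ± 429, then Cfd at 195 ± 185, Angptl4 at 118 ± 93.3, Nampt at 77.3 ± 22.3, Retn at 2.55 ± 3.39, Rbp4 at 0.156 ± 0.0427 and Lep at 0.00644. The mean ± SD ranges of neighbours in this order overlapped, apart from those of Nampt and Retn and of Rbp4 and Lep. PY on day 4 had the same order, from 701 ± 438 for Adipoq through 289 ± 366 for Cfd to 3.95 ± 5.82 for Retn.

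**Figure D3:**
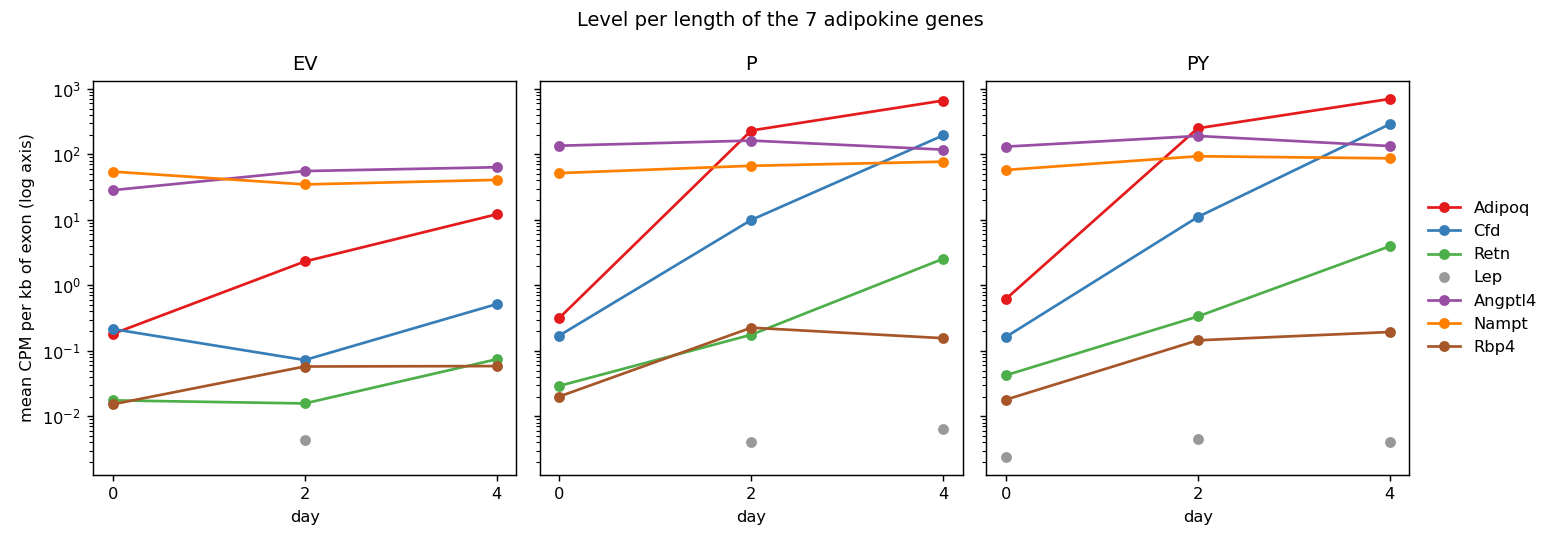
Mean level per kilobase of exon (CPM per kb, log axis) of the 7 adipokines by day, in 1 panel each for EV, P and PY; points are group means and Lep is shown only where its mean is above 0. Nampt leads in EV on day 0 at 54.5, and Adipoq leads in P and PY on day 4 at 663 and 701.

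Adding the Ybx1 guide to the Pparg guide gave no called difference in any adipokine. PY against P called 0 of 5 on day 0 (0.0294% of all genes), day 2 (0.0118%) and day 4 (0.0176%) by edgeR with Benjamini-Hochberg adjustment, 0 had an unadjusted p under 0.05, and DESeq2 also called 0. The intervals leave room for differences of more than 2-fold in the genes that vary most. On day 4 PY over P was 1.06 for Adipoq (0.39 to 2.86), 1.48 for Cfd (0.571 to 3.84) and 1.56 for Retn (0.547 to 4.45). For Adipoq the ratio was above 1 in 3 of 6 experiments, running from 0.205 to 1.74, and for Cfd in 5 of 6, from 0.182 to 2.64. For Angptl4 the day 4 ratio was 1.14 (0.409 to 3.15), above 1 in 6 of 6 experiments at 1.06 to 1.46, and on day 2 it was above 1 in 5 of 5 at 1.09 to 1.44. Nampt had the narrowest interval, 1.12 on day 4 (0.779 to 1.62) and 1.4 on day 2 (0.954 to 2.05), where PY was higher in 5 of 5 experiments (edgeR Benjamini-Hochberg adjusted p = 1). The change of PY against P from day 0 to day 4 was called for 0 of 5 adipokines and for 0 of all genes (0%), with 62 genes at an unadjusted p under 0.05 and 0 called by DESeq2.

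**Figure D4:**
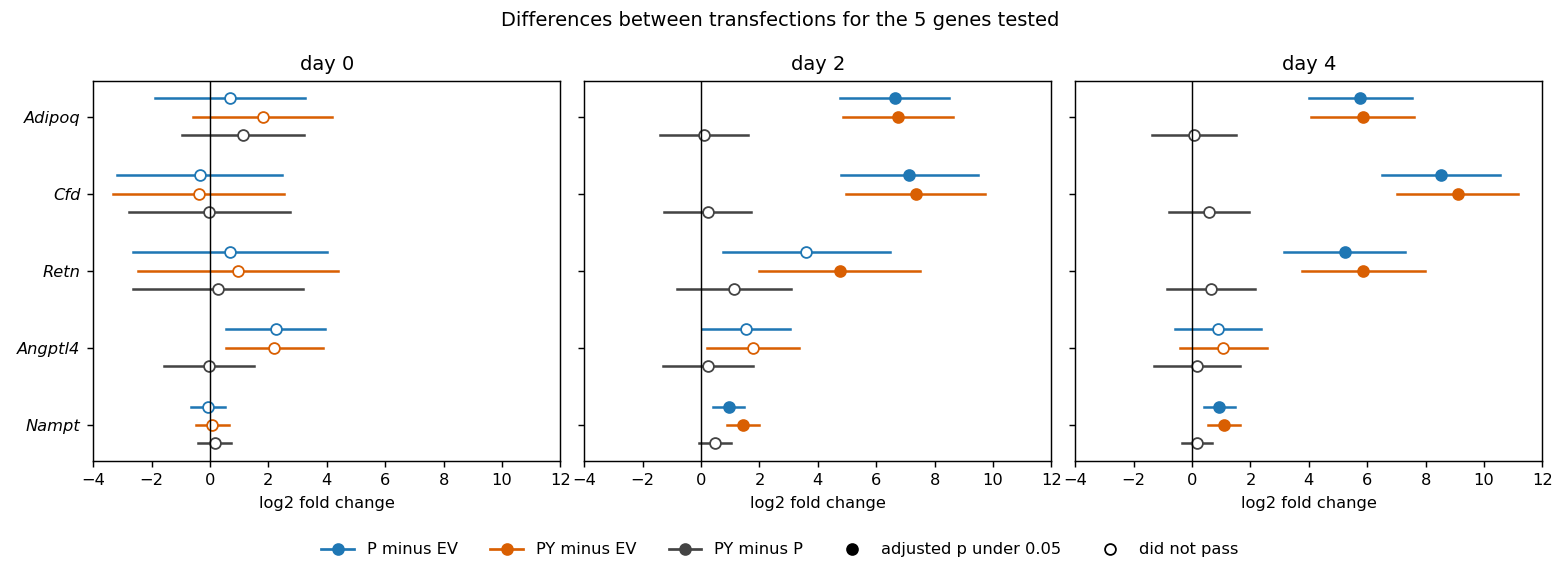
Log2 fold change of the 5 tested adipokines in P against EV, PY against EV and PY against P on days 0, 2 and 4; points are edgeR estimates, filled where the adjusted p is under 0.05, and lines are 95% intervals. Adipoq, Cfd and Retn lie well above 0 against EV on day 4 at 5.76, 8.53 and 5.23 in P, while all PY against P intervals include 0.

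Adipoq and Cfd rose between day 0 and day 2 in both guide groups, and Cfd and Retn rose between day 2 and day 4 in P. From day 0 to day 2, 2 of 5 were called in P (14% of all genes) and 2 of 5 in PY (22.7%), Adipoq and Cfd in both. Adipoq rose 779-fold in P (151 to 4019.7, edgeR Benjamini-Hochberg adjusted p = 7.5e-07) and 385-fold in PY (adjusted p = 3.64e-07). Cfd rose 52.7-fold in P (12.1 to 229.9, edgeR adjusted p = 0.000274) and 62.8-fold in PY (edgeR adjusted p = 9.58e-05). On day 0 a P library held at most 35 Adipoq and 19 Cfd counts, and a PY library 46 and 11. These folds therefore start from few counts. Without experiment 5, or its P day 2 library, the P folds were 366 or 437 for Adipoq and 31.1 or 30.03 for Cfd; the PY folds were 253 and 41.7 without experiment 5 for Adipoq and without the PY day 2 library of experiment 6 for Cfd. In PY the day 2 over day 0 ratios of 8.73 for Retn and 1.62 for Nampt had adjusted p of 0.0543 and 0.0672. Both were called with the experiment as a block (0.0254 and 0.0138), which made 4 of 5. That block called 6031 of all 17015 genes in this comparison.

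From day 2 to day 4, P gained Cfd and Retn, 2 of 5 called where 1.29% of all genes were. Cfd rose another 19.3-fold (6.48 to 57.7, edgeR Benjamini-Hochberg adjusted p = 0.00706, 6 of 6 experiments) and Retn 14.3-fold (4.03 to 50.5, adjusted p = 0.0305, 5 of 6). The Cfd call was lost without experiment 2 or 6 (adjusted p = 0.117 and 0.0579) and with only the compared groups in the fit (0.0812), and its fold was 33.5 without the P day 2 library of experiment 5. The Retn call was lost without a filter on low counts (0.079), with only the compared groups (0.0947), without any of experiments 1, 2, 3, 5 and 6, and without the P day 2 libraries of experiments 1, 2, 3, 4 and 6 or the P day 4 libraries of experiments 2, 5 and 6. Its adjusted p was then 0.0522 to 0.127, and its fold was 22 without the P day 2 library of experiment 5. Adipoq on day 4 was 2.87 times its day 2 level in P (edgeR adjusted p = 0.272, higher in 6 of 6), and with the experiment as a block it was called (0.0327). That block called 3405 of all 17015 genes in this comparison, against 220 in the main fit.

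In PY, day 4 against day 2 called 0 of 5 adipokines and 0 of all genes (0%) with edgeR, although 1189 genes had an unadjusted p under 0.05 and DESeq2 called 17. 2 adipokines had an unadjusted p under 0.05. Cfd was 24.5-fold higher on day 4 without overlap between the days, in 5 of 5 experiments (Benjamini-Hochberg adjusted p = 0.0684), and DESeq2 called it (0.00127). The block by experiment called Cfd (6.18e-07) and Retn, at 9.73-fold (0.00101; 0.248 without the block). For PY on day 4 against day 2 that block called 966 of all 17015 genes. In EV, day 4 against day 2 called 0 of 5 (0.0353% of all genes), with 1 at an unadjusted p under 0.05 and 0 by DESeq2. With the experiment as a block, Adipoq was called there (4.67-fold, adjusted p = 0.0234; 0.142 without), and Nampt was called lower on day 2 than on day 0 in EV (0.659 times, 0.0277; 0.155 without), 2 of 5 with Adipoq. In EV that block called 3410 of all 17015 genes on day 4 against day 2 and 3714 on day 2 against day 0.

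Whether the guide effect itself grew was tested as a change of P against EV. From day 0 to day 2 edgeR called 0 of 5 adipokines (0.0588% of all genes), with 3 at an unadjusted p under 0.05. The change was 7.49 on the log2 scale for Cfd (Benjamini-Hochberg adjusted p = 0.312) and 5.96 for Adipoq (0.362). DESeq2 called both (adjusted p = 0.000177 for Cfd and 0.00134 for Adipoq). It called 62 of all genes in this change, where edgeR called 10. From day 2 to day 4 the change was called for 0 of 5 adipokines and 0 of all genes (0%), with 167 genes at an unadjusted p under 0.05 and 0 called by DESeq2.

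Adipoq, Cfd and Retn varied together across libraries. Over the 51 libraries, which share experiments and groups, Pearson r of log2 CPM was 0.89 for Adipoq and Cfd, 0.88 for Cfd and Retn and 0.75 for Adipoq and Retn. After group means were removed it was 0.57, 0.77 and 0.51. Angptl4 gave 0.49 with Adipoq (0.39 within groups), 0.27 with Cfd (-0.14) and 0.17 with Retn (-0.12). Of the markers of fat cell formation, Adipoq followed Plin1, a lipid droplet protein, at 0.96 (0.78 within groups). With Fabp4, a fatty acid carrier, r over all libraries was 0.90 for Adipoq, 0.77 for Cfd, 0.73 for Angptl4 and 0.63 for Retn. Within groups it was 0.82 for Angptl4, 0.55 for Adipoq, 0.17 for Retn and 0.15 for Cfd. With Pparg, r over all libraries was 0.63 for Nampt, 0.57 for Cfd, 0.54 for Angptl4, 0.52 for Adipoq and 0.50 for Retn. Within groups these were 0.42, 0.47, 0.35, 0.50 and 0.43 in that order.

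Among all 17015 genes, the 3 with the highest r to Adipoq were Lgals12 (0.98), Pcx (0.97) and Retsat (0.97). For Cfd they included Adrb3 (0.96) and Slc2a4 (0.95), and for Retn they were Scd1, Irs3 and Orm2 (each 0.89). For Angptl4 they were Dnah6 (0.79), Plin2 (0.78) and Nrcam (0.78), and for Nampt Cebpg (0.87), Sepsecs (0.86) and Dnajc15 (0.86). These lists describe likeness over all groups and days. With P and PY of day 4 alone, 1 of the 3 recurred for Adipoq and 0 for Retn, Angptl4 and Nampt, and with a smaller prior count of 0.5 none recurred for Retn.

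Markers of fat cells rose with the adipokines, and their part in the result was not tested. The 16 fat cell markers, which include Plin1 and Fabp4, summed to 432 to 1718 CPM in EV, 4339 to 22179 in P and 2238 to 25592 in PY on day 4. On day 0 they summed to 188 to 314 in EV and 297 to 1169 in P. P against EV called 15 of 16 higher on days 2 and 4 (2.83% and 5.37% of all genes were called), with a median log2 fold change of 5.16 on day 4. The largest were Adrb3, the fat cell adrenergic receptor (193-fold), Pck1, an enzyme of glyceride synthesis (176-fold), and Cidec, a lipid droplet protein (159.6-fold, 523 ± 343 against 3.08 ± 5.69 CPM). Levels in EV were 0.121 ± 0.0842 CPM for Adrb3 and 0.119 ± 0.227 for Pck1, near the detection floor. The 11 mesenchymal markers summed to 10667 to 18824 CPM in EV and 6901 to 16287 in P on day 4, most of it Vim, Col1a1 and Col1a2, while the medians of Dlk1, Nt5e and Cd34 over all libraries were 0.232, 0.988 and 1.04 CPM. In P, 2 of the 11 had a fold above 1 on day 2 and 1 on day 4, and the median log2 fold change was -0.35 and -0.41. Of these, Nt5e was called on day 2, 3.46-fold higher, and 0 on day 4, where 4 had an unadjusted p under 0.05 and DESeq2 called 1. PY against EV on day 4 called 2 lower, where 7.83% of all genes were called.

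The 6 epithelial markers were scarce but higher in some PY libraries, and their part in the PY values was not tested. They summed to 2.31 to 3.1 CPM in EV, 2.51 to 4.51 in P and 1.98 to 13.7 in PY on day 0, and to 1.13 to 5.65, 0.95 to 4.72 and 1.26 to 15.7 on day 4. Of the 4 tested, edgeR called 0 in PY against EV on either day, with 3 on day 0 and 1 on day 4 at an unadjusted p under 0.05 and 0 by DESeq2, and their median log2 fold change was 2.40 and 1.72. Krt8, a keratin, reached 11.9 CPM, while Epcam had at most 3 counts in any library. The liver marker Alb had at most 7.

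Of 14 enzymes and carriers known as PPAR targets, 10 were called higher in P against EV on day 2 (2.83% of all genes were called) and 10 on day 4 (5.37%), with 0 lower and a median log2 fold change of 1.47 on day 4, beside -0.06 over all genes. They were led by Cd36, a fatty acid transporter (75.8-fold), Fabp4 (44.2-fold, 2714 ± 1331 against 61.4 ± 56.8 CPM) and Ucp3, a mitochondrial carrier (35-fold). Ucp3 was at 5.11 ± 4.35 CPM in P and at 0.136 ± 0.14 CPM in EV, near the detection floor there. Cd36 and Fabp4 are also among the 16 fat cell markers.

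Of 40 other secreted factors of fat cells, 31 were tested, and P against EV called 3 higher on day 2 (2.83% of all genes) and 5 higher on day 4 (5.37%), with 0 lower. At an unadjusted p under 0.05 there were 8 and 7. On day 4 the list had a median log2 fold change of 0.15. The largest on day 4 were Orm1, an acute phase protein (123-fold, 8.05 ± 8.87 against 0.0535 ± 0.0465 CPM), Fndc5, the precursor of irisin (9.08-fold), and Agt, angiotensinogen (8.68-fold, 11.2 ± 4.59 against 1.26 ± 0.671 CPM).

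On the receiving side, 1 of 11 tested adipokine receptors was called higher in P against EV on day 4, when 5.37% of all genes were called. Adipor2, an adiponectin receptor, was at 592 ± 323 CPM in P against 80.6 ± 27.5 in EV, 7.34-fold (4.28 to 12.6, edgeR adjusted p = 1.84e-06), with no overlap. Of 10 genes for adiponectin assembly and secretion, Sort1, a sorting receptor of the secretory pathway, rose 11.2-fold. Of the 9 complement partners of factor D, none was called in P on either day by edgeR, none had an unadjusted p under 0.05 and none was called by DESeq2. The block by experiment and day called 3 on day 2 and 4 on day 4, counted in either direction. It called 2798 and 4088 of all 17015 genes on those days. The median log2 fold change of the 9 partners on day 4 was -0.30.

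Among 7 genes of the lipoprotein lipase system, 2 were called higher in P against EV on day 4, when 5.37% of all genes were called. Lpl, the lipase that angiopoietin-like 4 inhibits and also 1 of the 16 fat cell markers, was at 1334 ± 951 CPM in P against 53.6 ± 61.4 in EV, 24.9-fold (8.42 to 73.5, edgeR adjusted p = 6.8e-05), and Pcsk6, a proprotein convertase, rose 1.98-fold. Of 13 genes of NAD synthesis and use, Nnmt, which methylates nicotinamide, rose 21.7-fold (11.1 ± 7.62 against 0.501 ± 0.341 CPM), and Nmnat1, which acts after NAMPT, rose 1.49-fold. Of 8 genes of retinoid handling, Rdh16, a retinol dehydrogenase, rose 18-fold from 0.07 to 1.12 CPM.

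Lists of other pathways known to act on these adipokines held 0 to 2 called genes each on day 4, when 5.37% of all genes were called. Of 12 hypoxia genes 2 were called higher, Pfkfb3, which drives glycolysis (2.58-fold), and Bnip3, a mitophagy receptor (2.57-fold). Of 10 glucocorticoid response genes 1 was called, Zbtb16, a transcription factor (18.1-fold, 1.42 ± 1.04 against 0.062 ± 0.0839 CPM). Of 11 NF-kB targets edgeR called 0 on day 4, with 0 at an unadjusted p under 0.05 and 0 by DESeq2, and a median log2 fold change of -0.28. Across all lists together, 169 genes were tested, and PY against P called 0 on days 0, 2 and 4 with edgeR, where 0, 2 and 1 had an unadjusted p under 0.05 and DESeq2 called 0. Over all genes edgeR called 0.0294%, 0.0118% and 0.0176% in that comparison on those days.

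With experiment and day as a block, more genes of these lists were called in P against EV, as were more of all genes (2798 on day 2 and 4088 on day 4, of 17015, counted in either direction). On days 2 and 4 that fit called 14 and 12 of 31 other secreted factors, 4 and 4 of 11 receptors and 5 and 7 of 13 NAD genes. It called 5 and 5 of 12 hypoxia genes, 3 and 3 of 10 glucocorticoid response genes and 1 and 1 of 11 NF-kB targets. For adiponectin assembly it called 1 and 2 of 10, for retinoid handling 3 and 2 of 8, for the lipoprotein lipase system 2 and 2 of 7 and for mesenchymal markers 8 and 7 of 11.

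**Figure D5:**
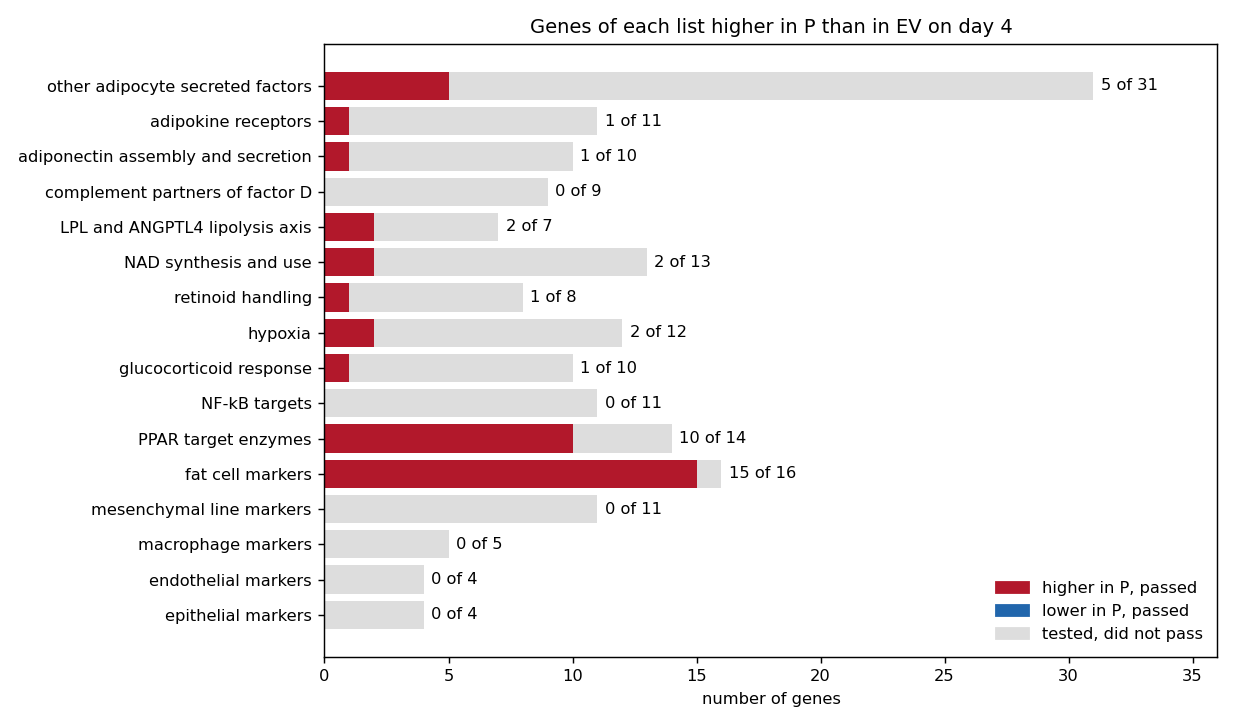
Number of tested genes in each list (bar length) and of those called higher in P than in EV on day 4 (red part of the bar, with the count beside it); no gene of these lists was called lower. The red part covers 15 of 16 fat cell markers and 10 of 14 PPAR target enzymes, and at most 5 genes of any other list.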

How the data were processed

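RNA was measured in 51 libraries of 1 mouse cell line (stranded total RNA, ribosomal RNA depleted, per the labels' protocols). The deposited values are whole-number counts of reads per Ensembl gene, not normalized, and every column of the table was matched to a library. The submitters' processing notes name STAR 2.5.3a, featureCounts 1.5.2 and edgeR 3.22.0 and the build mm10/GRCm38. The annotation and the strand and multiple-mapping settings are not given in the sources used here, so reads from overlapping genes could be placed either way. Of the 7 genes only Nampt overlaps another gene, Gdap10, with 0 exon bases shared.

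From the counts, edgeR 4.0.16 (R 4.3.3, limma 3.58.1) fitted all 51 libraries with 9 group means: filterByExpr, which kept 17015 genes, trimmed mean of M values normalization, robust quasi-likelihood dispersions and Benjamini-Hochberg adjustment over all genes kept. Each interval is the estimate with a standard error derived from the test statistic, at 95%. Gene positions and exon lengths are those of GENCODE M21, which matched 53706 of 53801 identifiers. Library totals of 3381870 to 114566739 set the precision, and intervals from pooled counts and floors of 3 counts cover counting error only.

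Replicate numbers differ from experiment numbers in P on day 0 and PY on day 2, so libraries were paired by the experiment the labels name. Residuals of libraries of the same experiment had a median correlation of 0.364 over 192 pairs, against -0.0886 over 963 pairs of different experiments. Alternatives were DESeq2 1.42.0 size factors and test, no filter and a stricter one (1 CPM in 5 libraries), the experiment as a block, only the compared groups, no libraries under 5 M counts, and each library or experiment left out. A fit without robust estimation and a block by experiment and day were added after the data were seen.

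The members and gene lists were chosen with earlier results of these data known. By rule, each list gives its counts and the 3 called genes with the largest change in P against EV on day 4 (day 2 if none), and each adipokine the 3 genes with the highest Pearson r of log2 CPM (prior count 2). For Cfd, 1 of those 3 genes is not reported here. Comparisons that share EV or P libraries are not independent. Figures were drawn with matplotlib 3.10.9.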

Additional observations from a re-analysis of the deposited data

Results flagged for a closer look

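In 45 groups of 5 or 6 libraries (5 adipokines in 9 groups), the highest or lowest library was compared with its nearest neighbour on the log2 CPM scale as a share of the group's range, and chance alone marks about 1 group in 20. 3 were marked, all in PY. Adipoq in PY of experiment 4 on day 4 was at 78.3 CPM, where the other 5 lay between 658 and 1833, a gap of 0.675 of the range. The same library was the lowest of PY on day 4 for Cfd, Nampt and Angptl4 as well, at 25.6, 193 and 136 CPM, and for Fabp4, Plin1 and Pparg, at 1018, 40.9 and 178 CPM. Cfd in PY of experiment 3 on day 0 had 0 counts, where the others lay between 0.133 and 0.260 CPM (gap 0.681), in a library of 4117244 counts, 1 of the 2 under 5 M. Nampt in PY of experiment 6 on day 0 was at 163 CPM, where the others lay between 269 and 357 (gap 0.639).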

How the results depend on the processing

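Of 80 differences of the 5 tested adipokines, 22 were called. Of these, 0 changed direction in any setting run, 15 kept their call in every setting and 7 lost it in some refit without 1 library or experiment. Those 7 are named with their values in the report. Of the other 58, 14 changed sign in some setting.

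The number of adipokines called stayed within 1.5 times its value in the settings not named here. P against EV on day 2 called 5 with experiment and day as a replicate block. EV on day 2 against day 0 called 0 without a filter and 2 with the experiment as a block, and EV on day 4 against day 2 called 1 with that block. P on day 4 against day 2 called 1 without a filter and 0 with only the compared groups. PY on day 2 against day 0 called 4 with the experiment block (6031 of all genes). PY on day 4 against day 2 called 1 with DESeq2 size factors and 1 with the stricter filter (2 of all genes in each). It called 2 with the experiment block (966 of all genes) and 1 with DESeq2 (17 of all genes). The change of P against EV from day 0 to day 2 called 1 with only the compared groups (10 of all genes) and 2 with DESeq2 (62 of all genes). The cause was not tested. Blocks by experiment and day raised the number of all genes called too, from 481 to 2798 in P against EV on day 2 and from 914 to 4088 on day 4. Among the adipokines they changed no other call than those given in the report. Among the 169 genes of the other lists, those called in P against EV went from 34 to 74 on day 2 and from 37 to 74 on day 4.

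With 1 library or experiment left out, the number called ran from 2 to 3 for P against EV on day 2 and 3 to 4 on day 4, from 2 to 4 for PY against EV on day 2 and 4 to 4 on day 4, from 0 to 1 for EV on day 2 against day 0, and from 0 to 2 for P on day 4 against day 2. It ran from 2 to 4 for PY on day 2 against day 0 and from 0 to 2 for PY on day 4 against day 2.

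Sign changes were confined to differences that were not called. On the log2 scale Nampt in P against EV on day 0 was 0.045 with the experiment block and 0.042 with experiment and day, and -0.17 to 0.031 with a library or experiment left out; in PY against EV on day 0 it was -0.053 to 0.21. In PY against P on day 0, Cfd was 0.0191 without libraries under 5 M counts and 0.0189 with DESeq2 (-0.25 to 0.38 when 1 was left out), Retn was -0.33 with the experiment block (-0.44 to 0.98), and Angptl4 was 0.19 without libraries under 5 M counts (-0.83 to 0.55). On day 2, Adipoq was -0.058 with the experiment block and -0.11 with experiment and day (-0.32 to 0.94), and Cfd was -0.21 and -0.27 (-0.37 to 1.02). On day 4, Adipoq was -0.0635 and -0.13 (-0.19 to 0.40), and leaving 1 out gave -0.21 to 1.09 for Cfd, -0.35 to 1.53 for Retn and -0.13 to 0.50 for Angptl4. Between days, leaving 1 out gave -0.21 to 0.41 for Angptl4 in EV from day 2 to day 4, -0.10 to 0.98 for Angptl4 in P from day 0 to day 2 and -0.27 to 0.24 for Nampt in PY from day 2 to day 4.

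Depth limits Lep and Rbp4 in all libraries and Cfd and Retn in EV, where folds rest on few counts. Some guide groups were limited as well. In P, libraries held 1 to 35 Adipoq and 0 to 19 Cfd counts on day 0 and 1 to 19 Retn counts on day 2. In PY these ranges were 1 to 46, 0 to 11 and 0 to 35. Rises from those days rest on few counts too.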
